A study of Mus musculus with 18 samples.

Results

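The interferon-stimulated genes are a list of 31 genes that cells switch on when interferon binds to them. They were taken from a list of gene names, and the deposited count matrix, which holds 20275 genes and 56201 cells in 140 named clusters, contained all 31. The genes were measured in bone marrow (BM) of C57B6/J mice by single-cell RNA-sequencing with antibody tags read from the same cells (CITE-Seq), at embryonic day 16.5 (E16.5), E18.5 and birth (P0) and in adults. At every stage 1 library held hematopoietic progenitors (HPs, sorted as Lineage-Kit+ cells) and 1 held stromal cells (CD45-Ter119-), except that E16.5 HPs were sequenced as 2 replicate libraries, which makes 9 libraries in all. The labels name no transgene, deletion or treatment, and none is shared by the groups. Each library was a pool of cells from several mice, male and female animals were used, and the adult age is given by the study only as a range of weeks. Fetal and P0 marrow are both described as from whole skeletons, and the dissection text, which names fetal tissue, leaves out the head bones. Adult marrow came from tibias, femurs, pelvic bones and spines. Red cells were lysed in adult preparations but not in fetal ones. For fetal against adult libraries, stage, bones and lysis therefore cannot be told apart, and lysis at P0 is not given in the sources used here. Stromal cells were released by digestion in warm medium with collagenase and DNase, and hematopoietic cells by crushing in ice-cold buffer. For stroma against HP, compartment and digestion therefore cannot be told apart.

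Type I interferons bind a receptor made of IFNAR1 and IFNAR2, whose kinases JAK1 and TYK2 activate STAT2. With IRF9 it takes part in a complex that binds a short DNA element, the interferon-stimulated response element, in front of the target genes. The products hold back viruses and mark marrow cells that have met interferon, a signal known to drive dormant hematopoietic stem cells into the cell cycle.

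Letters of this element stand in front of several members. RefSeq start sites (build GRCm38.p6) gave 300-base promoters, 250 bases before to 50 after the start, for 24 of the 31 members. The letters GAAA, any 2 bases and GAAA again, searched on both strands with overlapping matches counted, occurred in 12 of these 24 members and in 3.44% of all 32851 promoters of that length. Of 16 members set apart here as inducible, those whose transcripts are scarce until interferon arrives (Isg15, Irf7, Ifit1, Ifit2, Ifit3, Oasl2, Rsad2, Usp18, Mx1, Rtp4, Xaf1, Ddx58, Ifih1, Zbp1, Ifi44 and Dhx58), 11 had a promoter and 6 held the letters. The 60-base windows below are shown because their members held the letters 36 to 114 bases before the start, so they were picked for a match. They lie upstream of the start, read along the gene's own strand, with the matches in capitals.
Isg15, chr4:156200850-156200909, minus strand: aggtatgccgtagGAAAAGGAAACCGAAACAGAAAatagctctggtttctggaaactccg
Ifit1, chr19:34640779-34640838, plus strand: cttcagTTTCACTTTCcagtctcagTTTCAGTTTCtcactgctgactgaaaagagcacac
Ifit3, chr19:34583382-34583441, plus strand: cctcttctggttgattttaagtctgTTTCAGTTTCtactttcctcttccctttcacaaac
Rsad2, chr12:26456538-26456597, minus strand: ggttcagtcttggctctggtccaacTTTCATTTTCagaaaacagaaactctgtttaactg
Gbp2, chr3:142620579-142620638, plus strand: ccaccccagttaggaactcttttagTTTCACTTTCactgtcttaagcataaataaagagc
Bst2, chr8:71537562-71537621, minus strand: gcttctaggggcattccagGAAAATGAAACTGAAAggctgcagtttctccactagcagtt
Ifitm2, chr7:140955973-140956032, minus strand: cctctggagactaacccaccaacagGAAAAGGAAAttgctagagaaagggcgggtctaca

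On the other strand the letters read TTTC, any 2 bases and TTTC. They were not found in the promoter windows of Irf7, Oasl2, Xaf1 or Ifitm1, among others, and nothing follows from that about the factors that act there. Isg15 held 3 overlapping matches, the nearest 56 bases before its start, and Ifit1, Ifit3 and Bst2 held 2 each. A match is a description, not a binding site. Dhx58, Ifi27, Mx1, Parp14, Rtp4, Usp18 and Zbp1 were not matched to a promoter.

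The libraries differed in depth and in how many cell barcodes they shared. Total unique molecular identifiers (UMIs, 1 for each RNA molecule read) ran from 13974733 in E16.5 HP replicate 1, which held 560 cells, to 194892476 in P0 stroma, with 14084 cells. In E16.5 HP replicate 1, 334 cells (59.6%) carried a barcode sequence that another library also held, against 13.2% in adult HP, 12.2% in E18.5 HP and 1.34 to 5.06% elsewhere. Of these cells 330 shared a barcode with adult HP and 153 with P0 HP, and they were the deeper ones of their library (median 30898.5 UMIs, against 13813). How barcodes came to be shared was not tested, and this library is 1 of the only replicate pair. The shared barcodes of adult HP belonged to shallow cells (median 574.5 UMIs, against 8197 in its other cells) and those of E18.5 HP to deep ones (median 51292, against 10369.5), and 375 were common to these 2 libraries. Stroma held the markers Ptprc, Coro1a and Laptm5 of blood cells at no more than 1.90 CPM in all, against 597 to 1329 CPM in HP libraries. CPM is a gene's counts scaled to equal UMI totals. The authors removed contaminating blood cells from the stroma data they plotted. If the deposited stroma is that set, the removal itself lowered these markers, so their low level does not test the sort. Adult HP held a cluster coded Stroma (56 cells). Cluster names are the authors'. Against marker lists, HSPC2 and HSPC3 led with hematopoietic stem and progenitor (HSPC) genes, whereas the E16.5 cluster HSPC1 led with dendritic cell genes, P0 HSPC4 and adult HSPC5 with neutrophil genes, and adult Mono4, Mono5 and Mono6 with neutrophil genes, so the last 3 are called by their codes only.

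Summed over the 31 members, HP libraries held 2350 and 2588 CPM at E16.5, 2910 at E18.5, 2324 by P0 and 1134 in adults. Stroma held 1127 CPM at E16.5, 1045 at E18.5, 1427 by P0 and 1988 in adults. The adult thus had the lowest sum of the HP libraries and the highest of the stroma libraries. The stroma to HP ratio of these sums was 0.441 at E16.5 (0.480 and 0.436 against HP replicates 1 and 2 alone), 0.359 at E18.5, 0.614 by P0 and 1.75 in adults (95% counting interval 1.74 to 1.77). Without Ifitm1, Ifitm2 and Ifitm3 it was 0.369, 0.261, 0.373 and 1.24 in order of stage, so the higher ratio at P0 than at E16.5 rests on those 3 genes. Counting intervals here and below cover counting error only, with 1 library a group, and CPM is a level relative to all RNA of a library.

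Ifitm1, Ifitm2 and Ifitm3 supplied most of these sums, so the inducible members were also summed alone. They came to 123 and 96.2 CPM in the E16.5 HP libraries, 260 at E18.5, 233 by P0 and 94.2 in adults, and in stroma to 17.9, 24.5, 43.4 and 130 CPM in order of stage. E18.5 and P0 HPs therefore stood above both the E16.5 pair and the adult, and adult stroma stood above every earlier stroma library. Without cells of shared barcodes the inducible sum was 200 CPM in E16.5 HP replicate 1 and 325 CPM in E18.5 HP, and without only the shallower cell of each shared barcode it was 122 and 260 CPM. Without endothelial and CXCL12-abundant reticular cell (CAR) clusters it was 69.8 CPM in adult stroma and 36.7 CPM in P0 stroma. Without clusters coded Mono and those of HSPCs and lymphoid progenitors it was 121 and 90.7 CPM in the E16.5 HP pair, 111 in E18.5 HP, 138 in P0 HP and 88.1 in adult HP. These clusters do not include the E16.5 cluster Mono/Mast, which led with mast cell markers and made up 28.8% and 2.99% of the pair. Without it too the pair stood at 45.2 and 89.1 CPM, so E18.5 lay within the pair with that cluster kept and above both with it left out. Both choices were made after seeing the data. Mast cell clusters held 46.2% and 38.0% of the E16.5 HP libraries against 5.36 to 8.60% of the later ones, and mast cell genes summed to 36206 and 26365 CPM there against 316 to 1606 CPM. The inducible sum within E16.5 mast cells was 38.1 and 19.7 CPM. T cell clusters held 3.21% and 45.1% of the E16.5 pair and 1.10 to 1.87% of later HPs. The part of these cell types in the stage order of HP was not tested. Fewer cells of a type and less RNA per cell cannot be told apart in sums over a library.

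**Figure D1:**
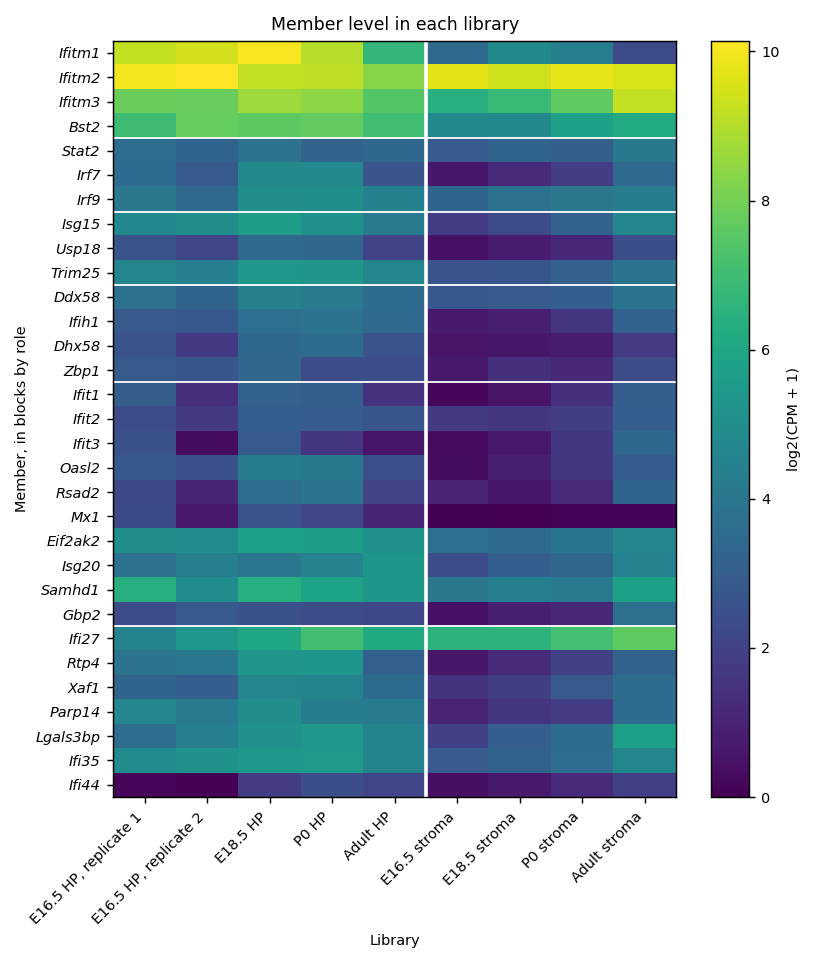
Level of each of the 31 members (rows, in blocks by role) in each of the 9 libraries (columns), as log2(CPM + 1) by colour. HP libraries lie left of the white line and stroma right of it, and most members are brightest at E18.5 or P0 among HP libraries and in the adult among stroma libraries.

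Single members followed these sums in their order over stages. In HP, 27 of 31 members were highest at E18.5 (17) or at P0 (10), whereas 33.6% of the 11419 genes with at least 10 counts in every library were. In stroma, 29 of 31 were highest in the adult (46.8% of genes) and 22 were higher at each later stage (12.7%). In 21 members adult stroma was over 3 times E16.5 stroma (8.5%). Between P0 and the adult, 26 members were higher in stroma and lower in HP (40.8%). Of the 31 members, 29 passed the count minimum that these shares of genes rest on, and among those 29 the counts were 25, 27, 21, 20 and 24 in the same order. With a mean over cells in place of summed counts, which weights shallow and deep cells equally, the counts over all 31 were 29 (40.1% of genes), 29 (50.2%), 22 (15.6%), 26 (10.2%) and 26 (36.3%). The inducible sums were then 143 and 96.0, 385, 303 and 123 CPM in HP and 19.5, 30.9, 51.1 and 229 CPM in stroma, and members that moved by over 1.5 times numbered 15 in adult stroma, 10 in E18.5 HP, 9 in adult HP and at most 4 in any other library. No library but the E16.5 HP pair was repeated, so these orders have no replicate check.

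The interferon-induced transmembrane proteins keep enveloped viruses from fusing with the cell. Ifitm1 stood at 606 and 697 CPM in E16.5 HPs, 1048 at E18.5, 513 by P0 and 104 in adults, and at 10.1, 28.0, 19.8 and 4.18 CPM in stroma in order of stage. Every HP library was above every stroma library, and the adult was lowest in both compartments. Ifitm3 stood at 226 and 217, 399, 338 and 173 CPM in HP and at 80.9, 114, 203 and 585 CPM in stroma. Its adult stroma library was the highest of all 9, above its highest HP library. Ifitm2 stood at 1005 and 1130, 595, 584 and 327 CPM in HP and between 676 and 872 CPM in stroma, with overlap between the compartments. The 3 genes are close in sequence, and reads that fit several of them could not be checked here. Bst2, which encodes tetherin, a protein that holds budding viruses on the cell surface, ran from 122 to 212 CPM in HP and from 26.4 to 73.4 CPM in stroma, without overlap.

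Irf7, the transcription factor that amplifies interferon production, stood at 10.6 and 6.31 CPM in the E16.5 HP pair, 26.6 at E18.5, 26.7 by P0 and 5.44 in adults. In stroma it stood at 0.564, 1.32, 2.61 and 10.2 CPM. Adult stroma thus exceeded adult and 1 E16.5 HP library for this gene, while all other stroma libraries lay below every HP library. Stat2 and Irf9, partners in the complex that binds response elements, varied less, with 8.42 to 13.5 and 9.99 to 31.8 CPM over HP libraries and 6.57 to 16.4 and 8.64 to 18.2 CPM over stroma libraries.

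Isg15, a ubiquitin-like protein that is attached to other proteins, stood at 25.6 and 31.4, 51.1, 36.2 and 16.9 CPM in HP and at 2.61, 4.15, 8.24 and 25.2 CPM in stroma. Adult stroma overlapped the HP range and the 3 earlier stroma libraries did not. Usp18, which removes Isg15 from its targets and dampens receptor signalling, had 3.12 to 9.93 CPM in HP and 0.411 to 4.36 CPM in stroma. Trim25, a ubiquitin ligase that activates the RNA sensor RIG-I, had 20.1 to 41.1 CPM in HP and 5.15 to 13.8 CPM in stroma, without overlap.

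Ddx58, which encodes RIG-I, had 8.75 to 20.6 CPM in HP and 5.96 to 14.1 CPM in stroma. Ifih1, which encodes MDA5, had 6.02 to 13.6 CPM in HP and was at 0.641 CPM in E16.5 stroma against 8.07 CPM in adult stroma. Dhx58, a relative of RIG-I, and Zbp1, a sensor of Z-form nucleic acid, reached 10.9 and 9.07 CPM in HP and 2.46 and 4.23 CPM in stroma, and both were highest in adult stroma among stroma libraries.

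Among the effectors, Ifit3, which binds viral RNA with its Ifit partners, ranged from 0.231 CPM in E16.5 stroma to 9.58 CPM in adult stroma. The E16.5 HP pair differed here, with 4.65 and 0.271 CPM, and E18.5 was the highest HP library with 6.37 CPM. Rsad2, which encodes viperin, an enzyme that makes a chain terminator of viral RNA, stood at 3.43 and 1.11, 11.3, 14.1 and 3.28 CPM in HP and at 0.992, 0.516, 1.33 and 8.68 CPM in stroma. Oasl2, an OAS-like protein, stood at 5.87 and 4.52, 18.6, 16.1 and 4.61 CPM in HP and at 0.257, 0.871, 2.12 and 6.68 CPM in stroma. For both genes E18.5 and P0 stood above the other HP libraries and the adult stood above the other stroma libraries. As a mean over cells Rsad2 was at 22.4 CPM in adult stroma, 18.4 in E18.5 HP and 19.7 in P0 HP, so the highest of the 9 libraries was then adult stroma and not P0 HP. Mx1 had at most 12 counts in any stroma library and 0.647 to 5.12 CPM in HP. Isg20, an exonuclease, was the only member highest in adult HP, with 40.8 CPM against 13.2 to 21.7 CPM in the other HP libraries. As a mean over cells the gap was small, with 24.9 CPM in adult HP and 22.3 in P0 HP. The cluster level of Isg20 was highest in the erythroid progenitor cluster EryP2 of the adult (146 CPM).

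In 7 members E18.5 and P0 HP were both over 3 times adult HP, which held for 2.62% of genes. These were Ifitm1, Irf7, Ifit1, Ifit3, Oasl2, Rsad2 and Rtp4, a receptor transporter that also restrains viruses. Ifi27, a small mitochondrial protein, stood at 22.3 and 41.6, 67.1, 133 and 70.6 CPM in HP and at 92.0, 93.7, 136 and 200 CPM in stroma. The compartments overlapped for it.

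Whether the members differed between stroma and HP was tested on counts summed by library (9 libraries, edgeR quasi-likelihood test with stage as a term, Benjamini-Hochberg adjustment over 18407 genes). Lower levels in stroma were called for 19 of the 31 members and a higher level for 1, where 57.8% of all genes were called, 25.8% lower and 32% higher. The 31 members therefore held a larger share of lower calls and a smaller share of higher calls than all genes did. The fit takes the difference between the compartments as alike at every stage, so a call averages over stages. Of the members called lower, Irf7 (10.2 against 5.44 CPM), Isg15 (25.2 against 16.9 CPM), Usp18, Oasl2, Samhd1, Rtp4 and Ifi35 were higher in adult stroma than in adult HP. The other members called lower were lower in the adult too. In edgeR, Ifitm1 had a log2 fold change of -5.14 ± 0.34 (SE, adjusted p = 4.68e-05). Parp14, an ADP-ribosyltransferase, had -3.05 ± 0.62 (edgeR adjusted p = 0.00561). Trim25 had -1.98 ± 0.30 and Bst2 -2.07 ± 0.37. Ifi27 was the member called higher, at 0.99 ± 0.31 (adjusted p = 0.0302), and it lost the call when either adult library, E16.5 stroma, E18.5 HP or E18.5 stroma was left out. Mx1 had -5.94 ± 1.12, a fitted value that rests on few stroma counts. In all these calls compartment and digestion cannot be told apart.

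The 11 members that were not called were Ifitm2 (0.41 ± 0.28), Ifitm3 (-0.62 ± 0.54), Stat2 (-0.16 ± 0.26), Ddx58, Ifit1, Ifit2, Ifit3, Rsad2, Gbp2, a guanylate-binding GTPase, Lgals3bp, a secreted glycoprotein, and Ifi44. In 7 members, Ifitm1, Bst2, Trim25, Zbp1, Mx1, Eif2ak2 and Parp14, every HP library lay above every stroma library. Among the 29 members with at least 10 counts in every library it did for 6, and for 28.2% of genes with that minimum. No member showed the reverse, which 18.5% of those genes did. The count of calls depended on single libraries. It was 9 without E18.5 HP (40.6% of genes called), 10 without E18.5 stroma (41.7%) or P0 HP (39.3%), 11 without P0 stroma (39.4%), and 25 without adult HP (56.7%) or adult stroma (56.1%), so the calls over all genes also fell without an E18.5 or P0 library.

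**Figure D2:**
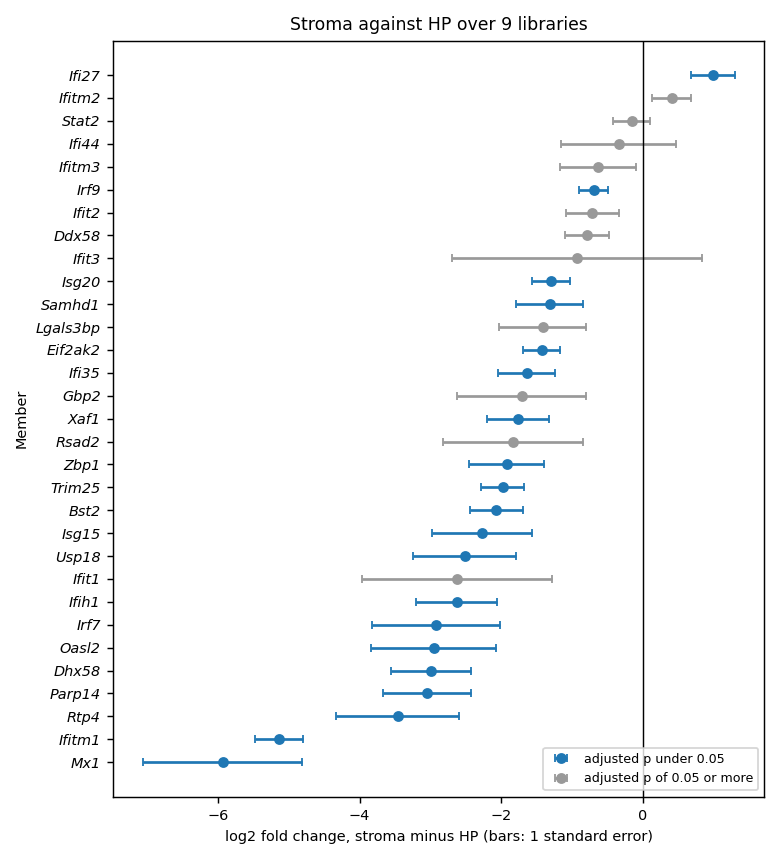
Log2 fold change of each member, stroma minus HP, over 9 libraries with stage as a term (points, with bars of 1 standard error). Blue points passed an adjusted p of 0.05, and 19 of these lie left of 0 while Ifi27 lies right of it.

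The steps in time gave no calls in that fit, which assumes that a stage moves both compartments alike. Between P0 and the fetal stages edgeR called 0 members and 0% of genes, with 3 members at an unadjusted p under 0.05 (Ifi27 at 1.19 ± 0.37, Ifi44 at 2.55 ± 0.87 and Irf9 at 0.71 ± 0.25) where 1.37% of genes were. Of the members, 26 of 31 had fold changes above 0, as did 52.6% of genes, and DESeq2 also called 0. Between the adult and P0 edgeR called 0 members where 0.0109% of genes were called (0.00543% in each direction), with Ifitm1 at -2.30 ± 0.42 (adjusted p = 0.453) and Isg20 at 1.08 ± 0.38 at an unadjusted p under 0.05. DESeq2 called Ifitm1 in that step (adjusted p = 0.000394), the 1 member where 1.19% of genes were called, as did a fit with each stage and compartment as its own group (adjusted p = 0.0177, 0.849% of genes). The median fold change of the members for this step was 0.65 on the log2 scale with all libraries, -0.95 without adult stroma and 1.43 without adult HP. In both steps the number of members at an unadjusted p under 0.05 depended strongly on single libraries.

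The difference between the compartments was therefore put to a test of its own, chosen after the levels had been seen, with 1 residual degree of freedom from the E16.5 HP pair. For the step from P0 to the adult, the change in stroma exceeded that in HP for 30 of 31 members, with a median difference of 1.78 on the log2 scale, and for 51.5% of all genes, with a median of 0.04. None of the 31 passed adjustment over 19323 genes, of which 0.393% did (0.186% higher, 0.207% lower), and 11 members had an unadjusted p under 0.05, where 6.13% of genes had. The smallest adjusted p was that of Irf7 (difference of 3.93 ± 1.11, edgeR adjusted p = 0.150), followed by Rtp4 (3.54 ± 1.01, adjusted p = 0.152) and Rsad2 (4.49 ± 1.37, adjusted p = 0.218). Irf7 was called when genes with any count were kept (adjusted p = 0.0487, where 1.10% of genes were called), and DESeq2 called 0. For the step from E16.5 to P0 edgeR called 0 of 31 (0.595% of genes, 0.43% higher and 0.166% lower), with 2 at an unadjusted p under 0.05 (6.08% of genes). The stage orders of the members in HP and stroma are thus given as a description of single libraries.

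Clusters showed where the transcripts lay. Over clusters of 1 stage and compartment, the sum of the 16 inducible members had a median of 66.0 CPM in E16.5 HP, 185 in E18.5 HP, 214 in P0 HP and 96.8 in adult HP, and of 18.3, 17.3, 39.5 and 66.3 CPM in stroma. The highest clusters lay far above these medians. The 10 highest were, in order, E18.5 Mono1i and Mono1iii, adult AECs (arterial endothelial cells) and CARs, the small neutrophil cluster Neu2 of P0 (28 cells), E18.5 Mono1ii, lymphoid progenitors and dendritic cells (DC3) of P0, E18.5 endothelial cells and adult SECs (sinusoidal endothelial cells).

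**Figure D3:**
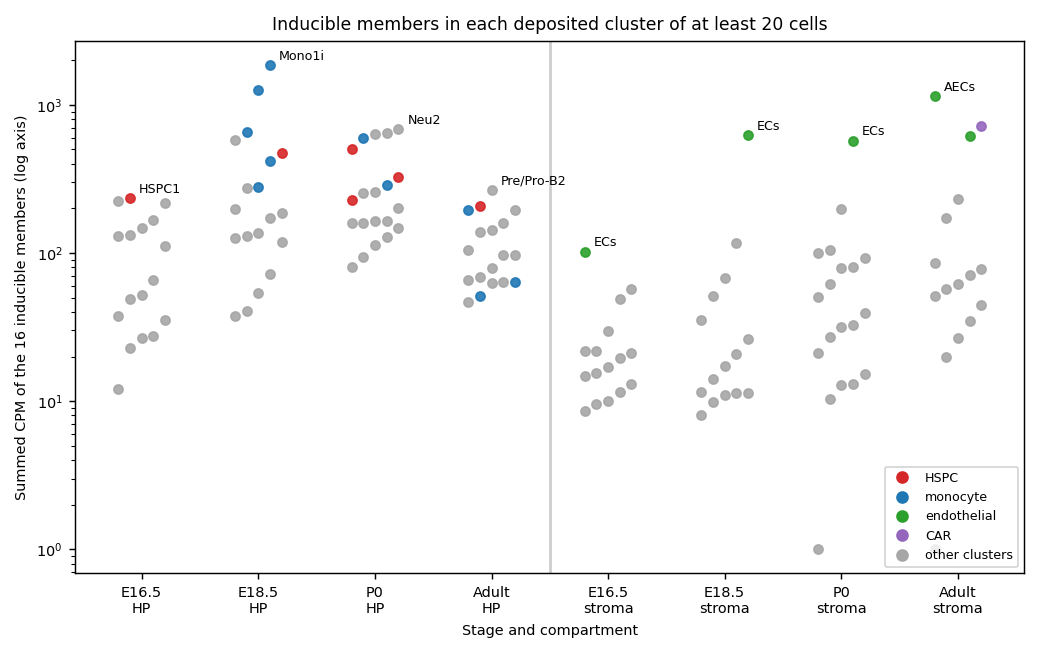
Summed CPM of the 16 inducible members in each deposited cluster of at least 20 cells (points, log axis), by stage and compartment, with the highest cluster of each column named. Clusters without a count (P5 in adult stroma, UD2 in P0 stroma) are drawn at 1. E18.5 Mono1i (1858 CPM) and adult AECs (1147 CPM) are highest in their compartments.

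The E18.5 clusters coded Mono had very different levels. The inducible sum was 1858 CPM in Mono1i (1805 to 1913, 191 cells), 1263 in Mono1iii (61 cells), 653 in Mono1ii, 420 in Mono1iv and 279 in Mono2, while P0 Mono1 had 594 CPM and adult Mono4 to Mono6 had 51 to 196 CPM. By the mean log level of each marker list, Mono1i, Mono1iii and P0 Mono1 led with monocyte markers and Mono1ii with dendritic cell markers. Mono1iv, Mono2 and P0 Mono2 led with macrophage markers. By summed CPM the first 3 held more of another list. Mono1i held 3284 CPM of monocyte, 4618 of macrophage and 7682 of dendritic cell genes. Mono1iii held 2509 CPM of monocyte, 504 of macrophage and 5483 of dendritic cell genes. P0 Mono1 held 1255, 2895 and 2191 CPM in the same order. These clusters are therefore called by their codes. Between Mono1i and Mono2, 18 of 30 members with at least 50 counts on the higher side had a ratio over 3, against 8.83% of genes. Under this minimum a member can enter through the side where it is high, so such counts, here and below, are descriptions, to be read beside the share of genes under the same minimum. Ifitm3 was at 2742 CPM in Mono1i and 93.9 in Mono2, Irf7 at 247 and 8.54, and Isg15 at 409 and 32.7. Rsad2 was at 103 and 5.69 CPM. Of all 140 clusters, Mono1i was highest for Stat2, Irf7, Isg15, Usp18, Ddx58, Ifit2, Ifit3, Oasl2, Mx1, Eif2ak2, Rtp4, Xaf1, Parp14 and Ifi35.

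Against the adult clusters Mono4 to Mono6 summed, the 5 E18.5 clusters coded Mono had ratios over 3 in 26 of 30 members, where 13.7% of genes did. Rtp4 was at 112 against 2.10 CPM, Irf7 at 155 against 4.06 CPM, and Isg15 at 230 against 10.2 CPM. Against the P0 clusters coded Mono the ratio passed 3 in 4 of 30 members, Zbp1, Ifit2, Ifit3 and Mx1, where 2.82% of genes did. By mean log level the adult clusters led with neutrophil markers and 3 of the 5 E18.5 ones with dendritic cell or macrophage markers. By summed CPM, adult Mono6 also held 19666 CPM of dendritic cell and 2495 CPM of monocyte genes. Its inducible sum was 196 CPM, against 51.5 in Mono4 and 64.0 in Mono5, so the adult side pools unlike clusters. The part of cell type in these differences was not tested.

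Hematopoietic stem and progenitor cells sustain blood formation. The clusters coded HSPC are HSPC1 at E16.5, HSPC2 at E18.5, HSPC2 to HSPC4 at P0 and HSPC5 in the adult, and they are compared by code, since HSPC1 held 8227 CPM of dendritic cell genes against 299 CPM of HSPC genes and HSPC5 also led with another list. HSPC genes summed to 745 CPM in E18.5 HSPC2, 733, 619 and 332 CPM in P0 HSPC2, HSPC3 and HSPC4, and 566 CPM in HSPC5. The inducible sum was 153 CPM (33 cells) and 255 CPM (165 cells) in the E16.5 replicates, 476 at E18.5, 369 by P0 and 206 in adults. Of the 31 members, 27 stood above the adult at E18.5, as did 68.3% of the 11828 genes with at least 50 counts over the 5 libraries. At P0 25 members stood above the adult (62.3% of genes) and 17 above both E16.5 libraries (31.2%). Rsad2 had 1.20 and 3.12 CPM at E16.5, 20.9 at E18.5, 27.9 by P0 and 8.81 in adults. Irf7 had 10.8 and 26.8, 32.5, 38.2 and 10.5 CPM, and Rtp4 had 21.6 and 35.6, 86.3, 65.8 and 24.8 CPM. For all 3 genes E18.5 and P0 stood above the adult and above both E16.5 libraries. Against E16.5, Samhd1, which depletes the nucleotides that viruses copy with, ran the other way, from 115 and 97.4 CPM at E16.5 to 66.0, 60.6 and 45.9 CPM. Stat2, Zbp1, Gbp2 and Mx1 also lay below both E16.5 libraries at E18.5 and P0. At these stages Stat2, Zbp1 and Gbp2 lay below the adult as well, whereas Samhd1 and Mx1 lay above it.

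Ratios over 3 were few between the clusters coded HSPC. At P0 against E16.5 they were Rsad2 (10.2) and Ifi44 (15.7, interval 5.34 to 76.6, from 3 counts at E16.5), 2 of 26 members where 3.45% of genes passed. At E18.5 against the adult they were Irf7, Isg15, Ifit1 and Rtp4 (3.11 to 3.63), 4 of 28 where 2.47% passed. At P0 against the adult they were Irf7 (3.65) and Rsad2 (3.17), 2 of 28 where 2.71% passed. Members as far in the other direction were 0, where 3.38% of genes were (P0 against E16.5), 3.06% (E18.5 against E16.5), 1.63% (E18.5 against the adult) and 1.17% (P0 against the adult). At E18.5 against E16.5 the ratio passed 3 in 2 of 27 members, Rsad2 and Ifi44, where 1.76% of genes did. Within P0, HSPC2 had 503 CPM and HSPC3 326 CPM of inducible members, and 0 of 30 members had a ratio over 3 (0.103% of genes). The dendritic cell genes that led E16.5 HSPC1 and the neutrophil genes that led adult HSPC5 moved with the stage, and their part in these differences was not tested.

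**Figure D4:**
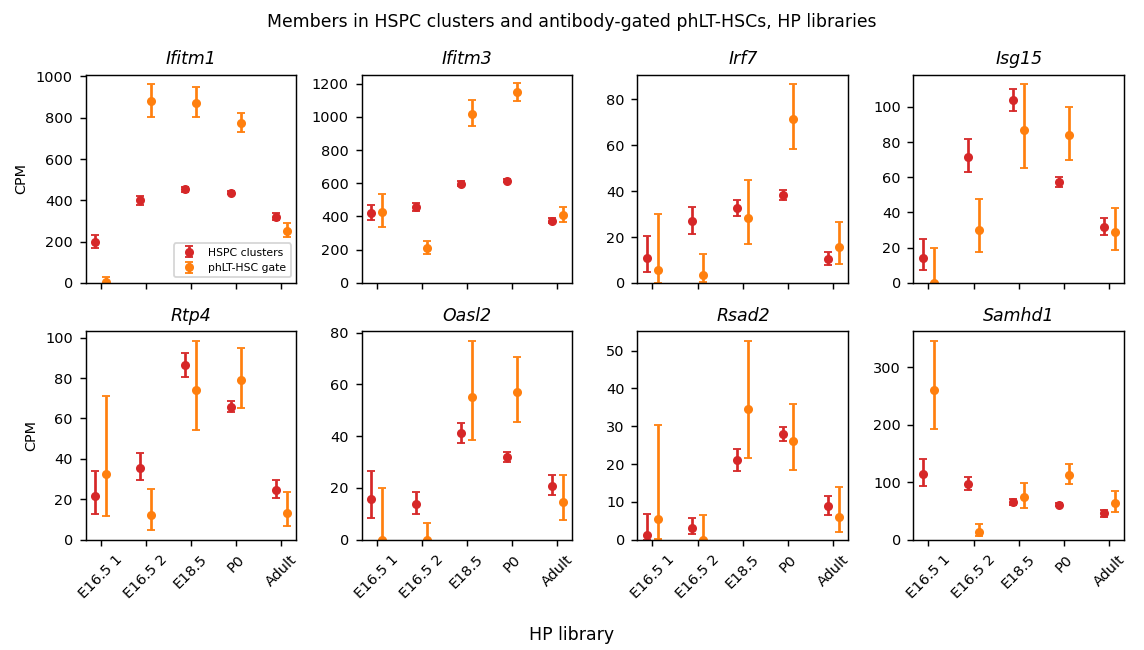
CPM of 8 members in the clusters coded HSPC (red) and in phLT-HSCs gated by antibody tags (orange) in the 5 HP libraries, with 95% Poisson intervals. E18.5 and P0 lie above the adult in these clusters for all 8 members, and Samhd1 is highest at E16.5 there.

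Cells with the surface markers of long-term hematopoietic stem cells (phLT-HSCs, Sca-1+ CD135- CD48- CD150+ by antibody tags) numbered 10 and 28 at E16.5, 33 at E18.5, 114 by P0 and 134 in adults. The gate level was set here, and at P0 and in adults it held more cells than the study's own phLT-HSC sets. By their RNA, the E16.5 gated cells carried markers of other types. None of them lay in a cluster coded HSPC, 78.6% of those in replicate 2 lay in T cell clusters, and HSPC marker genes summed to 59.7 and 78.9 CPM against 1033, 782 and 412 CPM at the later stages. Clusters coded HSPC held 69.7% of the gated cells at E18.5 and 65.8% by P0 but 21.6% in adults, whose gated cells were also shallower (median 3214.5 UMIs, against 11295 by P0). T cell genes reached 6836 CPM in replicate 2 and macrophage genes 10431 CPM in replicate 1, against 853 CPM of macrophage genes at E18.5, 1105 in P0 and 75.5 in adult gated cells. The comparisons with E16.5 and with the adult below therefore compare the libraries' gated cells as labelled, and the part of other cell types was not tested.

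The inducible sum in phLT-HSCs was 103 and 93.0 CPM at E16.5, 537 at E18.5, 609 by P0 and 189 in adults. Summed over all members, these cells held 2373 and 2626 CPM at E16.5, 3926 at E18.5, 4284 by P0 and 1757 in adults. The adult thus lay above the E16.5 pair in the inducible sum and below it over all members. Without Ifitm1, Ifitm2 and Ifitm3 the adult (664 CPM) lay within the pair (874 and 544 CPM). The E16.5 samples differed widely in some members, with Ifitm1 at 5.43 and 881 CPM and Samhd1 at 261 and 14.0 CPM. Oasl2 had 0 counts in both E16.5 samples (754201 UMIs, which allow up to 3.98 CPM), 55.1 CPM at E18.5, 57.0 by P0 and 14.4 in adults, at least 14.3-fold higher at P0 than the E16.5 limit of 3 counts over both samples. The same floor gave at least 8.98-fold for Ifi44 and 1.90-fold for Ifit2 and Ifit3, which also had 0 counts at E16.5. Irf7 had 5.43 and 3.51, 28.3, 71.4 and 15.6 CPM, and Xaf1, a factor that promotes cell death, had 10.9 and 8.77, 64.6, 59.8 and 16.8 CPM. Both genes were lowest at E16.5, and their E18.5 and P0 values exceeded the adult. For P0 against E16.5, edgeR on these sums (1 residual degree of freedom) called 1 of 27 members tested, Oasl2 (adjusted p = 0.00955), where 0.571% of genes were called (0.331% higher, 0.24% lower), and 10 members had an unadjusted p under 0.05 (3.03% of genes). That p rests on the spread between the 2 E16.5 samples, both at 0 counts for this gene in 10 and 28 cells, with 1 library at P0. Oasl2 passed the count filter only through the later libraries (35 counts at E18.5, 83 at P0 and 12 in adults), where it was high. The call is therefore given as a description. At a stricter antibody level, which left 1 and 2 cells at E16.5, the fold change was 7.73 on the log2 scale (edgeR adjusted p = 1), and a looser level gave 4 calls, Oasl2, Ifi44, Irf7 and Xaf1, where 0.742% of genes were called. DESeq2 gave an adjusted p to 13 of the 27 members, of which it called 0, and gave none to Oasl2. For the adult against E16.5 edgeR called 0 of 27 (1.47% of genes, 0.754% higher and 0.719% lower), with 2 at an unadjusted p under 0.05 (5.49% of genes), and DESeq2 called 0 of the 8 members to which it gave an adjusted p.

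In phMPP2s (the multipotent progenitors with CD48+ CD150+ tags), the inducible sum was 520 and 174 CPM at E16.5, 292 at E18.5, 377 by P0 and 132 in adults, so that 1 E16.5 library was the highest. Summed over all members, these cells held 2434 and 3011 CPM at E16.5, 2712 at E18.5, 3013 by P0 and 1533 in adults. The E16.5 library that was highest in the inducible sum then lay below E18.5 and P0. Here too the E16.5 cells carried markers of other types. Clusters coded HSPC held 0% and 7.81% of them, against 31.1% at E18.5, 53.4% by P0 and 13.6% in adults, and T cell clusters held 65.6% of those in replicate 2, whose T cell genes summed to 6248 CPM. Macrophage genes summed to 3019 and 834 CPM at E16.5, 1793 at E18.5, 693 by P0 and 42.5 in adults. Their part in the values below was not tested. Isg15 stood at 318 and 65.3 CPM at E16.5, 58.2 at E18.5, 57.0 by P0 and 17.7 in adults. It was called lower in the adult gate than in the E16.5 one (log2 fold change -3.31 ± 0.90, edgeR adjusted p = 0.00914), the 1 call among 31 members where 3.57% of genes were called (1.52% higher, 2.05% lower). E16.5 replicate 1, with 10 cells, held the high value, and the fold change without it was -1.68 with no test. The call was lost in DESeq2 (adjusted p = 0.0764), at a looser antibody level (-1.95, edgeR adjusted p = 0.292) and at a stricter one, where the fold change of 1.51 rests on 2 and 1 cells at E16.5 (edgeR adjusted p = 0.979). For P0 against E16.5 edgeR called 0 of 31 (1.55% of genes, 0.549% higher and 1% lower), with 7 at an unadjusted p under 0.05 (5.39% of genes), and DESeq2 called 0 of the 18 members to which it gave an adjusted p.

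Endothelial clusters carried the highest inducible sums of the stroma at each stage before the adult, and AECs and CARs were highest in the adult. Over all 31 members this did not hold at E16.5, where endothelial cells had 2063 CPM (1968 to 2160) and the fibroblast cluster F4 had 2328 CPM. Endothelial clusters led with endothelial markers at every stage and held 1.08 to 21.8 CPM of the blood cell markers Ptprc, Coro1a and Laptm5 in all. The inducible sum was 102 CPM at E16.5 (82.1 to 126, 71 cells), 624 at E18.5 (575 to 677, 94 cells), 572 at P0 (542 to 603, 223 cells) and 914 in the adult (885 to 943, 594 cells). E16.5 lay below all later stages. Other marker lists moved too in these clusters. The CAR markers Cxcl12, Lepr, Adipoq and Kitl summed to 263, 1234 and 888 CPM at E16.5, E18.5 and P0. In the adult they summed to 2450 CPM in AECs and 463 in SECs. The dendritic cell list summed to 359, 389 and 797 CPM, then 4363 and 2865 CPM. The part of these lists in the stage order was not tested. The share of endothelial cells among stroma cells went from 0.863% at E16.5 to 9.48% in the adult.

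Isg15 in endothelial cells was at 23.0 CPM at E16.5, 223 at E18.5, 181 by P0 and 206 in adults. Its E16.5 interval (14.0 to 35.5) lay apart from the others, while E18.5 and the adult overlapped. Ifitm3 was at 517, 1572, 1645 and 2329 CPM and Rsad2 at 3.45, 20.2, 50.8 and 156 CPM, so both were higher in the adult than at P0. Ifi44, a cytoplasmic protein, was at 4.60, 56.3, 47.5 and 34.0 CPM and Bst2 at 353, 817, 719 and 595 CPM, and both were highest at E18.5.

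At E18.5 against E16.5, 5 of 12 endothelial members with enough counts had a ratio over 3, Ifitm3 (3.04), Isg15 (9.71), Xaf1 (3.75), Parp14 (3.45) and Ifi44 (12.3), where 2.14% of genes did. For P0 against E18.5, 0 of 16 did (1.94%), and 0 of 16 were as far lower (0.0451%). At the adult against P0, 6 of 27 did, Irf7, Ifit2, Ifit3, Rsad2, Gbp2 and Ifi27, where 7.48% of genes did, and 0 were as far lower (1.92%). At the adult against E16.5, 20 of 27 did, where 20.3% of genes did, and 0 were as far lower (1.81%), with Irf7 at a ratio of 34.3 (interval 9.43 to 284, from 2 counts at E16.5). Ifit1, Ifit2 and Ifit3 had no count at E16.5 and were 12.7-fold, 6.88-fold and 13.5-fold higher in the adult than a set floor of 3 counts in the E16.5 clusters.

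**Figure D5:**
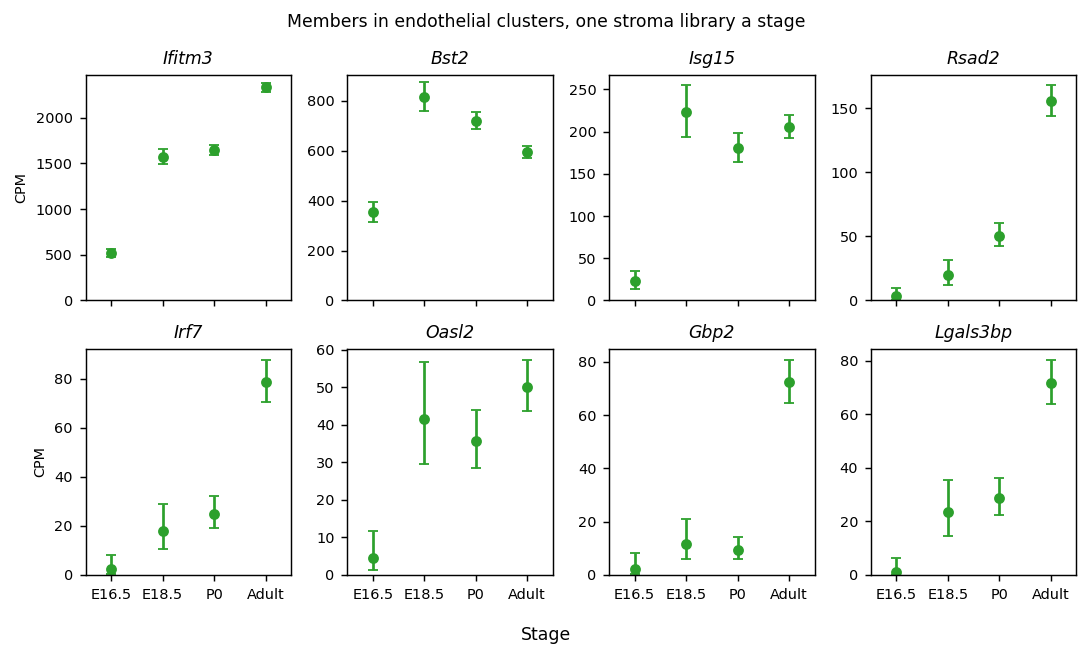
CPM of 8 members in endothelial clusters of the 4 stroma libraries (points, with 95% Poisson intervals), on a linear axis from 0 in each panel. All 8 are lowest at E16.5, Bst2 and Isg15 are highest at E18.5, and Rsad2, Irf7, Gbp2 and Lgals3bp are far highest in the adult.

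The adult holds 2 endothelial clusters. Their inducible sum was 1147 CPM in AECs (1104 to 1190, 400 cells) and 612 CPM in SECs (577 to 649, 194 cells). The ratio passed 3 for Irf7 (116 against 31.3 CPM) and Ifit1 (67.7 against 12.9 CPM), 2 of 26 members where 3.18% of genes did, and in 0 of 26 members in the other direction, where 4% did. Isg15 was at 254 and 143 CPM and Rsad2 at 195 and 106 CPM. The genes H2-Aa, H2-Ab1, Cd74, Flt3, Siglech and Cst3 of the dendritic cell list summed to 4363 CPM in AECs and 2865 CPM in SECs, with 2 and 3 of the 6 markers under 1 CPM, and macrophage genes to 4.57 and 388 CPM, with 5 of 6 under 1 CPM in both. The 4 CAR markers summed to 2450 CPM in AECs and 463 CPM in SECs, with 0 of 4 under 1 CPM in both. The part of these lists in the difference was not tested.

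CARs, which supply CXCL12 to stem cells and are found here only as an adult cluster of that name, had 724 CPM of inducible members (694 to 755, 359 cells) against 78.4 CPM in the adult osteolineage cluster. Ratios of CARs to that cluster passed 3 in 21 of 27 members, where 8.52% of genes did. Isg15 was at 236 against 12.1 CPM, Irf7 at 65.0 against 2.67 CPM, and Samhd1 at 396 against 31.7 CPM. Lgals3bp was at 326 against 41.2 CPM. CARs held 3.67 CPM of the blood cell markers in all, 18.0 CPM of the endothelial markers and 5938 CPM of the dendritic cell list, with 4 of its 6 markers under 1 CPM. The part of the latter was not tested.

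Fibroblast and chondrocyte clusters, which make up most stroma cells, had lower levels. The inducible sum in fibroblasts was 24.8, 36.6, 65.8 and 90.0 CPM in order of stage, and in chondrocytes 11.8, 10.9, 15.6 and 29.2 CPM. Between the adult and E16.5, 15 of 28 fibroblast members had a ratio over 3 (12.5% of genes) and 6 of 18 chondrocyte members did (8.01%). Gbp2 was at 1.07 and 13.3 CPM and Lgals3bp at 4.00 and 38.8 CPM in fibroblasts of E16.5 and the adult. Only Ifitm1 was over 3 times higher at E16.5, at 28.6 against 1.63 CPM, where 9.93% of genes were.

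Ifitm1 was highest in basophil and eosinophil clusters. Its level was 20460 CPM in the E18.5 basophil cluster Bas1 and 13768 CPM in P0 Eos/Bas3, against a median of 40.9 CPM over the 140 clusters. Summed over eosinophil and basophil clusters it was 14417 and 6770 CPM at E16.5, 6617 at E18.5, 2065 by P0 and 1137 in adults. The first value rests on 18 cells. These sums pool unlike clusters, such as Bas1 and Eos/Bas2 at E18.5 and Bas2, Eos/Bas3 and EosP at P0. The part of that mix in the order was not tested. Over the 140 clusters, the correlation of log2(CPM + 1) of each member with the mean of the inducible members other than itself, given as a description of clusters that share libraries and depth, was lowest for Ifitm2 (0.10), Ifi27 (0.25), Isg20 (0.44), Stat2 (0.47) and Ifitm1 (0.48, and 0.05 over the 74 HP clusters). The members most like the inducible ones were Oasl2 and Xaf1 (0.88 each), Rtp4 (0.87), Isg15 and Parp14 (0.86 each) and Irf7 (0.85).

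Single cells were read at an equal depth of 2000 UMIs, to which 50654 cells were thinned and below which 5547 were left out. The loss was uneven, with 1006 of 3477 cells in E18.5 HP, 1498 of 5985 in adult HP and 2149 of 14084 in P0 stroma. In the E16.5 HP pair it was 22 of 560 and 35 of 4752. Undefined clusters held 27.1% of E18.5 HP cells before this loss. A cell with at least 3 of the 16 inducible members was rare. Such cells made up 1.30% and 0.848% at E16.5, 7.93% at E18.5 (6.90 to 9.07%), 4.81% at P0 (4.28 to 5.39%) and 1.00% in the adult (0.732 to 1.34%) of HPs, and 0.0490, 0.192, 0.327 and 3.32% (2.89 to 3.80%) of stroma. Exact binomial intervals cover counting error only. E18.5 and P0 HPs and adult stroma were above the other libraries of their compartment. The shares depend on depth. At 1000 UMIs they were 3.81% at E18.5 and 1.5% at P0 in HP and 1.48% in adult stroma. Without thinning they were 31.4% at E18.5 and 47.7% at P0 in HP, which turned the order of these stages, and 14.0% in adult stroma. Of all 832 such cells 111 held at least 6 members, and 1204 cells held 1 member too few to be counted.

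By cluster, the share was 47.6% in E18.5 Mono1i (93.2% without thinning, median 11504 UMIs), 28.9% in adult AECs (51.8%, median 4520.5) and 28.8% in Mono1iii. It was 16.7% in P0 Mono1, 15.5% in P0 lymphoid progenitors, 14.6% in P0 HSPC2, 12.8% in CARs and 11.9% in SECs. Among clusters coded HSPC it was 2.02% at E16.5, 10.9% in E18.5 HSPC2 (7.96 to 14.4%, median 25053.5 UMIs), 5.99% in P0 HSPC3 (median 22422 UMIs) and 3.47% in adult HSPC5 (2.16 to 5.25%, median 7636 UMIs), and P0 HSPC4 had 1 of 112 cells or 0.893% (0.0226 to 4.87%, median 46141 UMIs). Erythroid progenitors are set beside these as another cell type. P0 EryP1 had 0 of 461 cells (exact interval up to 0.797%, 49.2% of cells without thinning, median 37938 UMIs), E18.5 EryP/MegP had 0.498% (up to 2.74%, median 46052 UMIs) and adult EryP2 had 0.212% (up to 1.18%, median 27905.5 UMIs). Erythroid cells were the deeper ones at every stage compared, except beside P0 HSPC4, so their shares set no background level for the clusters coded HSPC. No erythroid cluster was read at E16.5.

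The genes around the members in the pathway were read from a list of 65, of which 59 were in the matrix. Ifng, the ligand that immune cells secrete, was lower in stroma than in HP (log2 fold change -5.75 ± 1.03, edgeR adjusted p = 0.00327). Of 6 receptor chains 2 were called lower, Ifngr1 (-1.95 ± 0.23) and Il10rb (-1.15 ± 0.42), and neither Ifnar1 (-0.21 ± 0.20) nor Ifnar2 (-0.45 ± 0.20) was called. Of 9 signal transducers and factors 6 were called lower, among them Tyk2 (-1.65 ± 0.27) and Irf8 (-4.17 ± 0.40), and Irf1 was called higher (1.43 ± 0.33).

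Of 4 inhibitors, Socs3 (6.15 ± 0.63) and Socs1 (2.24 ± 0.80), which block the receptor kinases, were called higher in stroma and Irf2bp2 lower (-0.89 ± 0.25). Of 10 sensing adaptors and receptors 5 were called lower, Mb21d1 and Tmem173, which encode cGAS and STING, Tbk1, and the endosomal sensors Tlr7 and Tlr9. Of 29 further interferon-stimulated genes 19 were called lower and 2 higher, Cxcl9 (3.97 ± 0.78) and Iigp1 (1.69 ± 0.48). All shares are to be read beside the 25.8% of genes called lower and 32% called higher, and compartment and digestion cannot be told apart here either. None of these 59 genes was called in either stage step of the library sums, in edgeR with 9 libraries. In adult phMPP2 sums, 1 of 24 further interferon-stimulated genes and 1 of 4 inhibitors were called lower than at E16.5. At P0 1 of 24 further interferon-stimulated genes was. Of all genes 2.05% (adult) and 1% (P0) were called lower.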

How the data were processed

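mRNA and antibody tags of 9 libraries were analysed. Per the labels and methods, the authors made UMI counts per gene and cell with Cell Ranger 3.1.0 (count and aggregate, mm10) and filtered and clustered cells in R 4.0 with Seurat 3.1.5. The deposited values are raw counts for mRNA and tags, cluster names, and a mitochondrial fraction per cell, made by the authors from those counts and not used in any test. Counts were summed by library, cluster or gate. Sums were tested with edgeR's quasi-likelihood test (TMM, filterByExpr, Benjamini-Hochberg adjustment over all genes, threshold 0.05), with the standard error taken as the fold change over the root of F, and DESeq2 as an alternative. The code was tested on simulated data. Gates used centred log ratios of tag counts above 1 within a library. CPM intervals are exact Poisson and shares exact binomial, at 95%, and cover counting error only. Ratios between clusters have 1 library a side and no test, and members were counted where the higher side had at least 50 counts, which lets genes enter through the side where they are high. Depth was 13974733 to 194892476 UMIs a library. Nothing says that the E16.5 HP pair came from separate animals, so p-values measure the spread between these libraries, which may be technical. Doublets were not called here, and the authors had removed the cells with the most genes or UMIs of each sample as putative doublets. Genes were named as members or pathway genes by list, and others in a comparison by a CPM ratio over 3 or a passed test. The members and lists were chosen with earlier results of these data known. Alternatives were another normalization, filters, antibody levels, thinning depths, a mean over cells, cell subsets and leaving out libraries. The values of 1 pathway gene are not reported here.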

Additional observations from a re-analysis of the deposited data

How the results depend on the processing

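No paired analysis was possible because only the E16.5 HP libraries carry replicate numbers, so that no number is shared by 2 groups. The stage that HP and stroma share is already a term of the fit of library sums. Leaving out 1 library in turn moved the count of members called between stroma and HP over 9 to 25, and the cause was not tested beyond the smaller number of libraries. It left the other counts of the library sums at 0, and where it left no residual degrees of freedom only fold changes were had. In gated cells, an antibody level of 0.75 gave 4 calls for P0 against E16.5 phLT-HSCs (0.742% of genes), 1 for the phMPP2s (1.16%), 1 for adult against E16.5 phLT-HSCs (2.07%) and 0 for the phMPP2s (3.38%). A level of 1.5 gave 0 for P0 phLT-HSCs (0.0959% of genes) and 0 for adult phMPP2s (0%), and there the fold change of Isg15 turned to 1.51 on the log2 scale. That level left 3 cells at E16.5 in either gate, which limits both. DESeq2 gave 0 for P0 phLT-HSCs (0.437%, with an adjusted p for 13 of 27 members), 0 for adult phMPP2s (1.55%, 24 of 31) and 1 for adult against P0 library sums (1.19%), as did a group for each stage and compartment (1, 0.849%). Keeping genes with any count gave 1 for the stroma minus HP difference between P0 and the adult. For these the cause was not tested.

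The stroma to HP ratio of summed members at E16.5 ran from 0.436 to 0.480 when 1 HP replicate was left out. Without Ifitm1, Ifitm2 and Ifitm3 the ratio was 0.369, 0.261, 0.373 and 1.24 in order of stage, and as a mean of clusters it was 0.506, 0.340, 0.517 and 1.93. Without mitochondrial and ribosomal protein genes it came to 0.337 (E18.5), 0.572 (P0) and 1.39 (adult). Without cells of shared barcodes it was 0.297 at E18.5. Without endothelial and CAR clusters, a choice made after seeing the data, it came to 0.349 (E18.5), 0.598 (P0) and 1.45 (adult). Every one of these ratios stayed under 1 before the adult and over 1 in the adult. A mean over cells moved 194 member levels and 47 cluster sums beyond their counting interval and kept 85 and 93 within it. Shares of cells with at least 3 inducible members moved in all 9 libraries at 1000 UMIs and without thinning. Low counts limit Mx1, Ifit3 and Ifi44, and the small E16.5 gates limit the stem cell comparisons.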
